A study of Mus musculus with 4 samples.

Results

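The cells described here are lipid-associated macrophages of mouse liver, 830 cells with Trem2 and with Gpnmb or Spp1 transcripts, out of 31290 kept cells in 4 single-cell RNA-seq libraries. They were chosen by their unique molecular identifiers (UMIs, each standing for 1 captured transcript). A member had at least 10 UMIs of C1qa, C1qb and C1qc together, at least 1 of Trem2, at least 1 of Spp1 plus Gpnmb and at least 3 of Cd9, Fabp5, Cd63 and Lpl together. It had none of the Kupffer cell gene Timd4, of the T cell genes Cd3d, Cd3e and Cd3g or of the B cell genes Cd79a and Cd79b. Cells were kept if they held 500 or more genes and if mitochondrial transcripts made up no more than 20% of their UMIs. The mice were male C57BL/6J, young when purchased, and their perfused livers were digested whole. The normal chow diet (NCD) group gave 1 library and the high-fat diet (HFD) group gave 2, called HFD replicate 1 and HFD replicate 2. The JQF group gave 1 library. Mice of this group were on the same high-fat diet and received JQF, a formula of medicinal herbs, by mouth once fatty liver disease had developed. The NCD values and the JQF values each rest on 1 liver sample. For every library the labels enter "hematopoietic stem cell" as the cell line and "Immune cell" as the cell type, although whole liver was digested. The members carried general macrophage genes: the F4/80 gene Adgre1 stood at 434, 502 and 284 CPM (counts per 1e+06 UMIs) and Csf1r, the receptor for the macrophage growth factor, at 636, 767 and 675 CPM in HFD replicate 1, HFD replicate 2 and JQF. Values of these 3 libraries are given in this order throughout.

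Trem2 is a surface receptor of macrophages that binds lipids, lipoproteins and debris of dying cells and signals through the adaptor Tyrobp. Macrophages that take up lipid in obese fat, in atherosclerotic arteries and in fatty liver switch on a shared set of genes for lipid binding, lysosomal breakdown and matrix remodelling, with Trem2, Gpnmb, Spp1 and Cd9 among its best-known members. In the liver such cells stand beside resident Kupffer cells, which carry Timd4 and Clec4f, and beside macrophages that have come from blood monocytes.

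The members numbered 3 in NCD, 231 in HFD replicate 1, 548 in HFD replicate 2 and 48 in JQF. Their median depth was 15439, 14965 and 16248.5 UMIs in the HFD and JQF libraries. The remaining Timd4-negative macrophages with at least 10 C1q UMIs, the class they are compared with, were shallower at 8293, 8689 and 11182 UMIs. No barcode belonged to members of more than 1 library (0 shared), and 3 member barcodes were kept as other cells in another library. A doublet caller marked 74 of the 830 members. The HFD libraries stood apart in their Kupffer cells, with 7 Timd4-positive macrophages in HFD replicate 1 and 447 in HFD replicate 2, so shares are given over all macrophages and over Timd4-negative ones.

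Cells just inside and just outside the rule are given by their depth. The 111 members with exactly 1 Trem2 UMI had a median depth of 10081 UMIs and a median of 19 UMIs of Cd9, Fabp5, Cd63 and Lpl together. The 179 cells that missed the rule for want of a Trem2 UMI alone had medians of 8741 UMIs and 17 such UMIs. The 167 members with exactly 1 UMI of Spp1 plus Gpnmb had a median depth of 11984 UMIs, and the 351 cells that missed the rule for want of these alone had 12267. Over all members the medians were 5 Trem2 UMIs, 5 UMIs of Spp1 plus Gpnmb and 37 UMIs of the lipid-handling genes.

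Lipid-associated macrophages were a large share of the liver macrophages in both HFD libraries, a smaller share in the JQF library and 3 cells in NCD. They made up 51.6% of the 448 C1q-positive macrophages in HFD replicate 1 and 30.4% of the 1804 in HFD replicate 2, a mean of 41.0% ± 14.98 (SD, n = 2). In JQF they made up 14.8% of 324 (exact 95% binomial interval 11.1% to 19.2%), and in NCD 1.89% of 159 (0.391% to 5.41%). Both HFD libraries lay above JQF, and JQF lay above NCD. Of all kept cells the members were 3.55% and 5.34% in the HFD libraries, 0.562% in JQF and 0.0502% in NCD. The order of the HFD libraries thus turned with the denominator while both stayed above JQF. Over Timd4-negative macrophages the shares were 52.4% and 40.4% in HFD, 29.8% in JQF and 11.5% in NCD. With each cell thinned to 5000 UMIs before the rule was applied, the share of C1q-positive macrophages was 32.0% ± 14.1 (SD, n = 2) in HFD and 13.7% in JQF. The intervals cover counting error only, and with 1 JQF and 1 NCD library the shares were not tested.

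**Figure D1:**
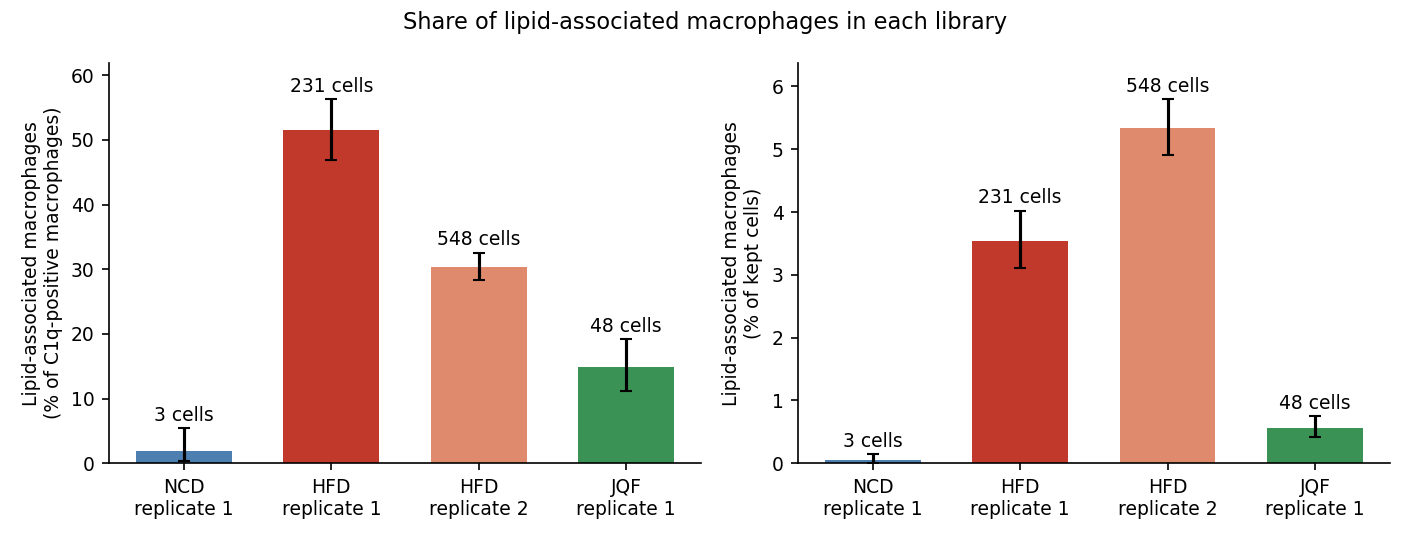
Bars show the lipid-associated macrophages as a percentage of C1q-positive macrophages (left) and of kept cells (right) in each of the 4 libraries, with exact 95% binomial intervals as error bars and the number of cells above each bar. On the left HFD replicate 1 stands at 51.6% and HFD replicate 2 at 30.4%, above JQF at 14.8% and NCD at 1.89%.

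The genes that chose the cells are described without a test. Gpnmb, a membrane glycoprotein of lysosome-rich macrophages (chr6:49036546-49070929, GRCm38), stood at 1024, 529.6 and 1203 CPM against 65.2, 50.4 and 19.4 CPM in the other Timd4-negative macrophages. Trem2 (chr17:48346401-48354147) stood at 693, 432 and 447 CPM against 129, 109 and 140.2 CPM, and Spp1, which encodes osteopontin (chr5:104435118-104441050), at 421, 339.9 and 252 CPM against 203, 61.5 and 25.9 CPM. In barcodes of at most 100 UMIs, which hold free RNA, Spp1 stood at 665, 228 and 354 CPM, above the members in HFD replicate 1 and JQF, while Gpnmb stood there at 164, 120.4 and 26.6 CPM and Trem2 at 133, 146 and 30.3 CPM, below the members in each library. The part of free RNA in the members' Spp1 was not tested. HFD replicate 1 was the higher HFD library for all 3 genes. In the NCD library, whose C1q-positive macrophages were mostly Timd4-positive, those Timd4-positive cells held 3.48 CPM of Gpnmb, 30.9 CPM of Trem2 and 0.387 CPM of Spp1. Lpl, the lipase that releases fatty acids from lipoproteins, was the most abundant lipid-handling gene of the rule at 2191, 1780.5 and 1679 CPM against 688, 869 and 438 CPM. It was nearly as high in Timd4-positive macrophages, at 1598, 1397 and 1429 CPM. Fabp5, a fatty acid binding protein, stood at 699.8, 577 and 1255 CPM against 132, 96.8 and 105 CPM. The tetraspanin genes Cd9 and Cd63 stood at 517, 358 and 766 CPM and 999.9, 793 and 1194 CPM in the members.

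Most members entered the class through Gpnmb. Cells with Gpnmb and no Spp1 UMI were 48.9% of the members in HFD replicate 1, 51.6% in HFD replicate 2 and 47.9% in JQF. Cells with both were 41.1%, 34.7% and 35.4%, and cells with Spp1 alone were 9.96%, 13.7% and 16.7%. The rule asks every member for a UMI of 1 of these genes, so their shares of members with a UMI are a description. With each cell thinned to 5000 UMIs, Spp1 had a UMI in 37.9, 32.2 and 39.1% of members and 5.31, 3.77 and 3.44% of T cells, and Gpnmb in 74.0, 66.3 and 78.3% of members and 1.95, 2.10 and 3.19% of T cells. With Gpnmb required and Spp1 not counted, the members were 46.4% and 26.2% of C1q-positive macrophages in HFD and 12.3% in JQF. Without thinning the shares in T cells were 6.81, 4.91 and 5.996% for Spp1 and 3.18, 3.38 and 5.48% for Gpnmb.

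The 3 NCD members held 100389 UMIs in all, so that 3 UMIs stand for 29.9 CPM. Gpnmb stood at 59.8 CPM, Trem2 at 69.7 CPM and Lpl at 69.7 CPM in them, all below every HFD and JQF value. Mmp12, Atp6v0d2, Clec4f and Cd5l had 0 UMIs. Il1b stood at 3377 CPM, with 286 of its 339 UMIs in 1 cell, and Ccr2, the receptor that brings in monocytes, at 458 CPM. The doublet score marked 1 of the 3 cells. Of the 3 cells, 2 lay at the lowest allowed value of at least 1 condition of the rule, and NCD entered no fit.

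To find what else set these cells apart, their summed counts were compared with those of the other Timd4-negative macrophages in HFD replicate 1, HFD replicate 2 and JQF, with the library as a block (edgeR quasi-likelihood test, Benjamini-Hochberg adjustment). The p-values concern genes outside the rule in cells already selected by it, and they measure how steadily a gene differed over the 3 library pairs. Of 10515 genes tested, 627 passed an adjusted p of 0.05 (5.96%). In the members 337 were higher (3.2%) and 290 lower (2.76%). Without HFD replicate 2 the count was 139, and without the block no gene passed (0, with 1057 at an unadjusted p under 0.05).

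The lipid-associated programme outside the rule was higher nearly throughout. Of its 20 genes 18 were higher and none lower, with a median log2 fold change of 1.00 against -0.01 over all genes tested. The list was chosen with earlier results of these data known, and the rule itself uses genes of this programme. These counts therefore describe the members and are no independent support for their name. The list summed to 47776, 45237 and 42378 CPM in the members and 28144, 32173 and 24092 CPM in the others, with Timd4-positive macrophages, which entered no test, between them at 39417, 35934 and 37969.5 CPM. Atp6v0d2, a subunit of the proton pump that acidifies lysosomes (chr4:19876841-19922605), stood at 163, 124 and 166 CPM against 19.7, 22.9 and 8.63 CPM. The member and other values did not overlap (log2 fold change 2.94 ± 0.22 SE, adjusted p = 0.000643). Fabp4, a fatty acid binding protein of fat cells and lipid-loaded macrophages, stood at 176, 146 and 302 CPM against 17.4, 57.1 and 46.0 CPM (2.25 ± 0.29, adjusted p = 0.004). Lgals3, which encodes the lectin galectin-3, stood at 3204, 2303 and 4089 CPM against 1291, 1165 and 1285 CPM (1.35 ± 0.13, adjusted p = 0.00127). The members were higher in each library for these genes, as the choice of named genes required of Atp6v0d2 and Fabp4. The scavenger receptor gene Cd36, which takes up oxidised lipoprotein and fatty acids, stood at 1036, 1114 and 1226 CPM against 331, 655 and 408 CPM (1.35 ± 0.16, adjusted p = 0.00309). Apoe, the apolipoprotein that carries cholesterol out of macrophages, was the most abundant gene of the list at 25775, 25062 and 17685 CPM against 16997, 19292 and 13349.9 CPM, and of the 18 it had the smallest log2 fold change (0.49 ± 0.10, adjusted p = 0.0199). Cd52 and Colec12 did not pass, at -0.10 ± 0.09 and 0.49 ± 0.36. Without HFD replicate 2, 13 of the 20 passed.

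Lysosomal genes were higher in 20 of 37 and lower in none, with a median log2 fold change of 0.45. The list shares genes with the programme, Atp6v0d2, Ctsd, Ctsb, Ctsl and Ctsz among those that passed. Without HFD replicate 2, 9 passed. Timd4-positive macrophages, which entered no test, stood near the members, at a summed 34717, 34049.8 and 34565 CPM against 31919, 32301 and 34591 CPM in the members and 21047, 24678 and 18822 CPM in the others. Ctsd, the lysosomal protease cathepsin D (chr7:142375911-142388038), stood at 3694, 3035 and 3808 CPM against 1433, 1387 and 1216 CPM (1.41 ± 0.11, adjusted p = 0.000643). Psap, the precursor of the saposins that help to break down sphingolipids, stood at 5373, 5564 and 6559.9 CPM against 3336, 3465 and 3211 CPM (0.83 ± 0.10, adjusted p = 0.00321). For both genes every member value lay above every value of the other Timd4-negative macrophages, while Ctsd stood at 4307, 3051 and 3388 CPM in Timd4-positive ones. Ctsk, the collagen-degrading cathepsin K, was rare in the other macrophages and had the largest log2 fold change of the list, at 47.2, 8.90 and 55.3 CPM against 2.30, 1.80 and 0.719 CPM (3.62 ± 0.43, adjusted p = 0.00302). The transcription factor genes Tfeb and Tfe3, known regulators of lysosomal genes, stood at -0.02 ± 0.13 and -0.04 ± 0.12 and did not pass (adjusted p = 0.964 and 0.893).

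Among lipid uptake and efflux genes 8 of 24 were higher and none lower, and 2 without HFD replicate 2. They were Cd36, Lipa, Nceh1, Plin2, Plin3, Npc1, Apoe and Npc2. Lipa, the acid lipase that frees cholesterol from its esters in the lysosome, stood at 513, 483 and 629 CPM against 267, 314 and 312 CPM (0.88 ± 0.11, adjusted p = 0.00319). Plin2, the coat protein of lipid droplets, stood at 1171, 1146 and 1164 CPM against 675, 816 and 787 CPM (0.65 ± 0.10, adjusted p = 0.00807). The cholesterol exporter genes Abca1 and Abcg1 stood at 0.30 ± 0.11 and 0.50 ± 0.15 and did not pass (adjusted p = 0.165 and 0.0834). The list summed to 33210.4, 32787 and 25372 CPM in the members, 22284, 25726 and 18167 CPM in the others and 28314, 24166 and 26300.5 CPM in Timd4-positive macrophages. Of the 13 sterol and fatty acid synthesis genes tested none passed in edgeR or DESeq2. In edgeR 5.96% of all genes tested passed, and at that share a list of this size could hold none.

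Matrix remodelling genes were higher in 6 of 20, and in 3 when the members were set against macrophages with no Trem2 UMI. They were Ctsk, Adam8, Mmp12, Mmp13, Plau and Timp2, which are proteases except for the inhibitor gene Timp2. Mmp12, the macrophage elastase (chr9:7344381-7369499), stood at 1705, 1650.1 and 1658 CPM against 383, 761 and 587 CPM (1.61 ± 0.17, adjusted p = 0.00204). The member values of Mmp12 spanned a narrow range, while those of the other Timd4-negative macrophages were lower and more spread. Timd4-positive macrophages stood at 211, 1254 and 1221 CPM, nearer to the members in HFD replicate 2 and JQF. Adam8, a membrane protease, stood at 133, 58.7 and 89.9 CPM against 20.7, 15.7 and 41.0 CPM (1.98 ± 0.22, adjusted p = 0.00236), and the collagenase gene Mmp13 at 181, 183 and 98.0 CPM against 46.4, 122 and 76.2 CPM (1.00 ± 0.25, adjusted p = 0.0451). Of the glycolysis list 4 of 15 were higher (Pgam1, Pkm, Ldha and Gapdh) and of the iron and oxidative defence list 3 of 15, the ferritin chains Fth1 and Ftl1 and the peroxidase Prdx1. Neither list had a gene that passed without HFD replicate 2 (0 and 0). In the clearance of dead cells list Mfge8 alone of 15 passed, the bridging protein that binds dying cells, at 21.99, 6.65 and 39.2 CPM against 3.21, 3.36 and 5.75 CPM (1.98 ± 0.37, adjusted p = 0.0174). That is 6.67% of the list against 5.96% of all genes tested, so the count is no result about the list.

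Other genes that rose most among those of at least 50 CPM were Emp1, Anxa1, Blnk, Vat1, Anpep, Lgals1, Nav2, Lmna and Rhoc. Anxa1, which encodes annexin A1, a protein that dampens neutrophil recruitment, stood at 308, 199 and 361 CPM against 53.7, 64.98 and 163 CPM (1.77 ± 0.21, adjusted p = 0.00301). Lgals1, galectin-1, stood at 459, 321 and 468 CPM against 135, 124 and 188 CPM (1.52 ± 0.12, adjusted p = 0.000643). Blnk, an adaptor of immune receptor signalling, stood at 134, 86.8 and 123 CPM against 35.8, 25.7 and 61.8 CPM (1.64 ± 0.16, adjusted p = 0.00135). Each was higher in the members of all 3 libraries, as the choice of named genes required. Emp1 rose by 2.06 ± 0.15 and Anpep, a surface peptidase, by 1.59 ± 0.13. Vat1, Nav2, Lmna and Rhoc rose by 1.60 ± 0.16, 1.41 ± 0.14, 1.39 ± 0.13 and 1.37 ± 0.18. Rhoc stood at 133, 105 and 150 CPM in the members and 95.7, 113 and 95.9 CPM in Timd4-positive macrophages, which entered no test. Vat1 stood at 203, 150 and 226 CPM and 153, 129 and 153 CPM in these classes. Emp1, Anpep and Lgals1 were lower in Timd4-positive macrophages than in the members of each library, Lgals1 at 67.0, 43.4 and 52.0 CPM. Airn is a long RNA that overlaps Igf2r on the opposite strand, and the handling of strand in the counting is not given in the sources used here, so its 145, 114 and 310.0 CPM against 58.3, 40.8 and 34.5 CPM (1.86 ± 0.26) cannot be told apart from reads of Igf2r.

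**Figure D2:**
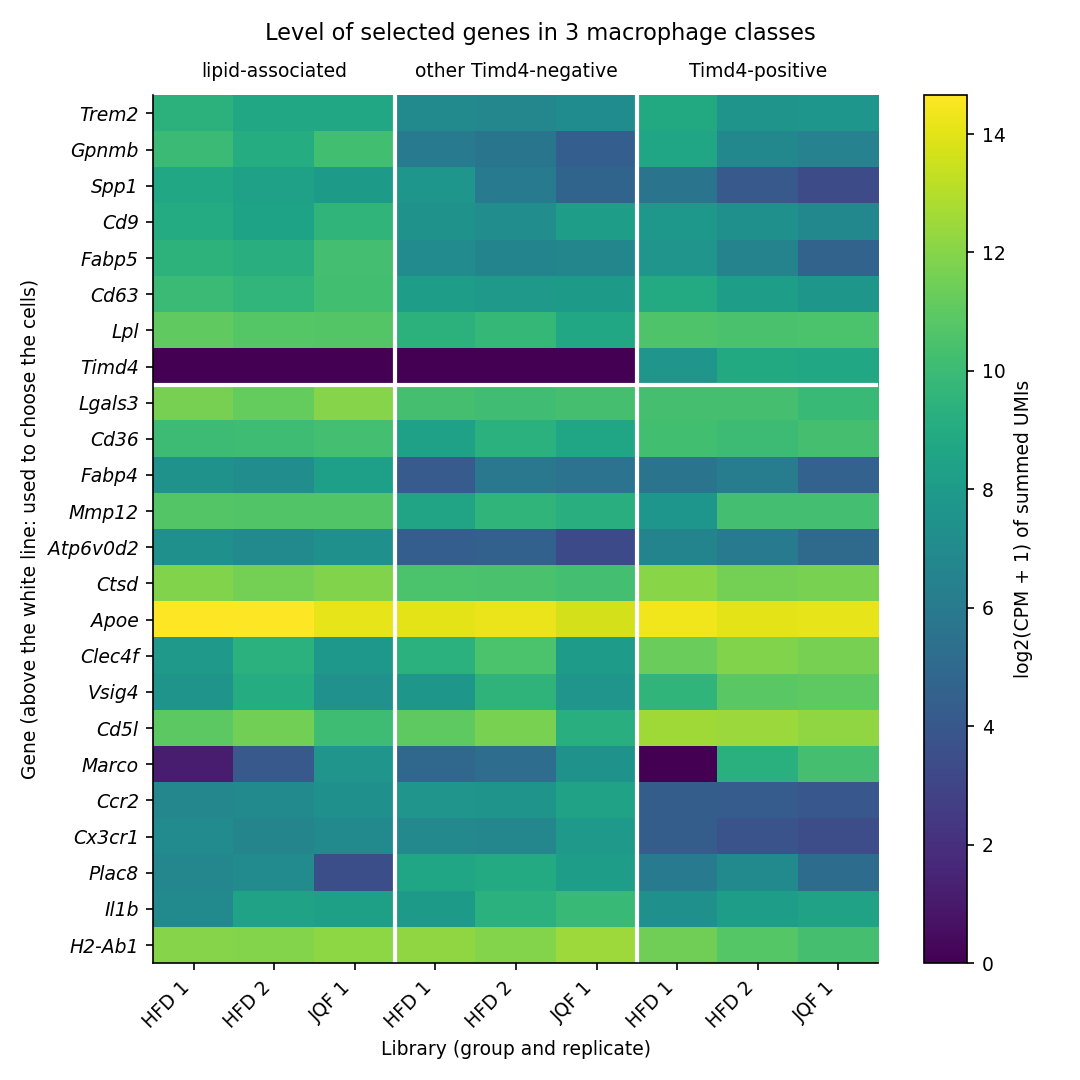
Colour shows log2(CPM + 1) of summed UMIs for 24 genes (rows) in the lipid-associated, other Timd4-negative and Timd4-positive macrophages of HFD replicate 1, HFD replicate 2 and JQF (columns). Fabp4 and Atp6v0d2 are brightest in the lipid-associated block of each library, whereas Lpl, Cd36 and Ctsd are also bright in the Timd4-positive block, which for HFD replicate 1 rests on 7 cells.

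Of 15 genes that relay or end the signal of the Trem2 receptor none passed as higher in the members, with a median log2 fold change of -0.17. In all 1 of 15 passed (6.67%), against 5.96% of all genes tested, so the count is no result about the list. Plcg2, a phospholipase that relays Trem2 signals, was lower at 104, 83.9 and 69.1 CPM against 143, 114 and 142 CPM (-0.55 ± 0.13, adjusted p = 0.039). Tyrobp, the adaptor, stood at 1908, 1920.3 and 1879 CPM against 1704, 1852 and 1927 CPM (0.09 ± 0.09, adjusted p = 0.629). The ranges of Tyrobp overlapped. Syk, the kinase that Tyrobp recruits, stood at -0.21 ± 0.09 (adjusted p = 0.234), and the sheddase genes Adam10 and Adam17, whose products cleave Trem2 from the cell surface, at -0.11 ± 0.09 and -0.01 ± 0.11. Plcg2 did not pass without HFD replicate 2.

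Part of the monocyte list was lower in the members. Of 16 genes 6 were lower and none higher: Plac8, Napsa, S100a4, Ifitm3, Ccr2 and S100a6. Plac8, a gene of classical monocytes (chr5:100553725-100572245), stood at 111, 133 and 10.4 CPM against 386, 505 and 294 CPM (-2.20 ± 0.31, adjusted p = 0.00564). Ccr2 stood at 109, 125 and 161 CPM against 196, 194 and 346 CPM (-0.80 ± 0.11, adjusted p = 0.00564). For both genes the ranges did not overlap. Timd4-positive macrophages, which entered no test, held Plac8 at 67.0, 130 and 34.8 CPM. The list summed to 2112, 2085 and 1783 CPM in the members and 3438, 3183 and 4223 CPM in the others. In Timd4-positive macrophages it summed to 1637, 1731 and 1827 CPM. Cx3cr1, a receptor of patrolling monocytes and maturing macrophages, stood at 131, 101 and 121 CPM against 120.3, 111 and 245 CPM and did not pass (adjusted p = 0.468).

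Kupffer cell genes were lower in 6 of 20 and higher in none. They were Clec4f, C6, Fcna, Cdh5, Ptgs1 and Clec4e, of which Clec4e encodes Mincle, an inducible receptor of many macrophages. Clec4f, a lectin found on Kupffer cells, stood at 239.9, 667 and 226 CPM against 654, 1465 and 263 CPM (-0.97 ± 0.19, adjusted p = 0.0191), and at 2565, 3779 and 3274 CPM in Timd4-positive macrophages. Cd5l and Vsig4, further Kupffer cell genes, did not pass at 0.23 ± 0.17 and -0.27 ± 0.11. Without HFD replicate 2 none of the 20 was lower. In cells with no Clec4f UMI, a comparison added after the data were seen, none of the 15 genes that could be tested was lower and 1, Il18bp, was higher. Among endothelial markers, which share Cdh5 with this list, Pecam1 was also lower at 41.7, 72.6 and 16.1 CPM against 106, 123 and 34.5 CPM (-0.98 ± 0.14), and the 10 markers summed to 153, 418 and 108 CPM in the members against 247, 549 and 153 CPM. Their part in the lower Kupffer genes was not tested.

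Inflammatory mediators were lower in 4 of 20 (Il1b, Ccl5, Nlrp3 and Cxcl10) and higher in none. Il1b, the cytokine released by inflammasomes (chr2:129364570-129371139), stood at 121, 346 and 320.4 CPM against 247, 655 and 965 CPM (-1.13 ± 0.13, adjusted p = 0.00302). It was lower in the members of all 3 libraries, as the choice of named genes required, although the 2 ranges overlapped. Timd4-positive macrophages, which entered no test, stood near the members in Il1b, at 163, 296 and 344 CPM. Tnf stood at 127, 205 and 591 CPM against 190.0, 220.4 and 489 CPM and did not pass (adjusted p = 0.759). Without HFD replicate 2 the list gave 1 lower gene.

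In the list of MHC class II and costimulation genes 4 of 10 were lower, the costimulatory genes Cd80, Cd40 and Cd86 and the class II regulator Ciita. Cd86 stood at 315, 426 and 482 CPM against 382, 590.0 and 792 CPM (-0.45 ± 0.11, adjusted p = 0.0426). The antigen-presenting genes H2-Aa, H2-Ab1 and Cd74 stood at -0.06 ± 0.09, -0.17 ± 0.10 and -0.14 ± 0.10 and did not pass. The list gave 1 lower gene without HFD replicate 1 and none without HFD replicate 2. Ifi44 and Irf7 were lower among 15 interferon-stimulated genes, Il10 among 12 anti-inflammatory and alternative activation genes, and the heat shock genes Hspa1a and Hspa1b among 13 stress and immediate early genes. These are 13.3%, 8.33% and 15.4% of short lists against 5.96% of all genes tested, and are no result about the lists. The remaining genes that fell most among those of at least 50 CPM were Adgre4, Negr1, Siglece, Gpr141, Lsp1, Atrnl1, Tmem176a and Tmem176b, with log2 fold changes from -1.59 to -1.07. Siglece, an inhibitory receptor for sialic acid, stood at 36.0, 36.4 and 12.7 CPM against 89.1, 85.6 and 43.1 CPM.

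**Figure D3:**
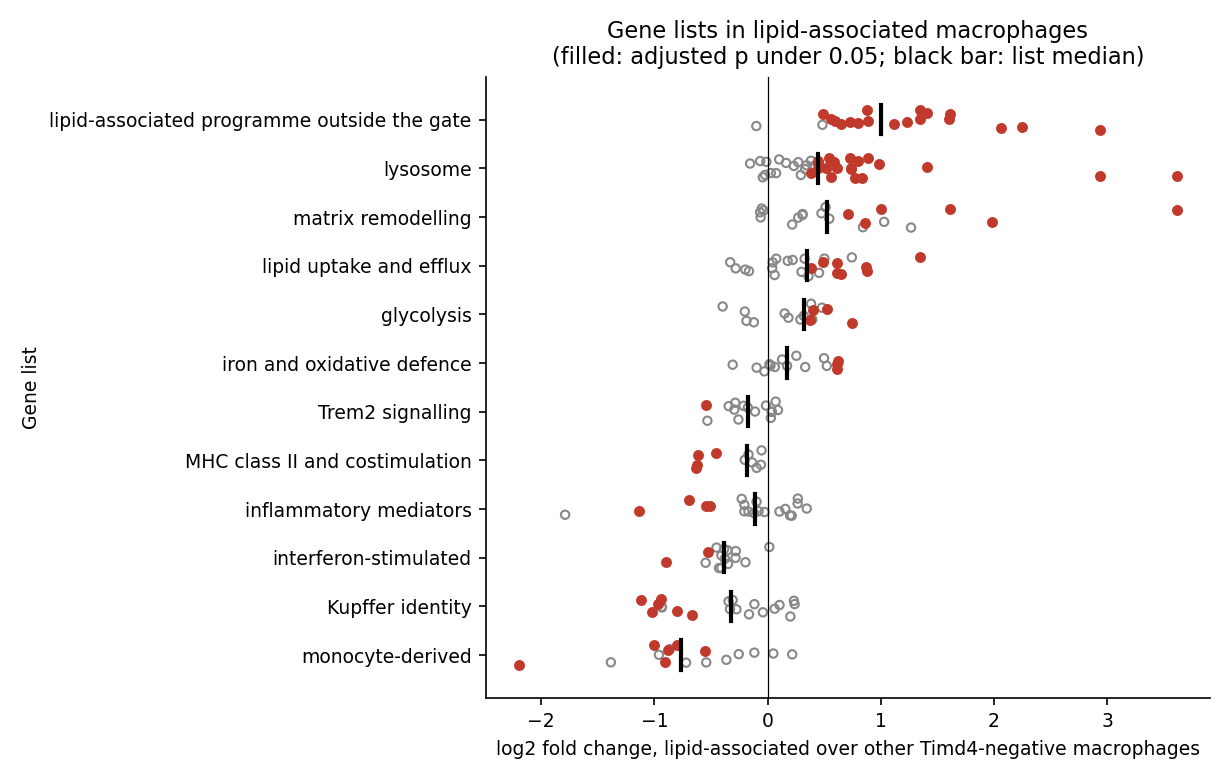
Each point is a gene placed by its log2 fold change between lipid-associated and other Timd4-negative macrophages (x axis), in rows by gene list, where filled points passed an adjusted p of 0.05 and black bars are list medians. The median of the programme outside the rule (the gate) is 1.00 and that of the monocyte-derived list -0.76.

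Markers of lymphocytes were low in both classes. Of 10 T and NK cell markers 3 could be tested, and Il7r, the interleukin 7 receptor gene, was higher at 80.2, 42.7 and 127 CPM against 16.1, 10.1 and 10.8 CPM (2.49 ± 0.22, adjusted p = 0.000981). The 10 markers, with Il7r among them, summed to 100.2, 60.1 and 141 CPM in the members and 54.6, 39.1 and 28.0 CPM in the others, and the CD3 genes were at 0 by the rule. Of 8 B and plasma cell markers 4 could be tested and Cd22 was higher at 24.99, 24.0 and 20.7 CPM against 14.7, 11.4 and 5.03 CPM (1.12 ± 0.21), with Pax5 at 0 in the members. None of 9 hepatocyte markers, 9 dendritic cell markers or 4 neutrophil markers tested was higher, and Cd209a and S100a9 were lower. No erythroid or stellate cell marker could be tested here, and between JQF and HFD members none of the 4 erythroid and 3 stellate markers tested passed in edgeR or DESeq2, while with no filter 4 and 2 were lower in JQF. The 6 erythroid markers summed to 1.75, 139.9 and 2.30 CPM in the members and 2.75, 14.4 and 3.596 CPM in the others, and the 8 stellate markers to 3.25, 55.0 and 2.30 CPM and 9.18, 6.59 and 8.63 CPM. HFD replicate 2 members stood above the other libraries for both lists, and the part of this in the results was not tested.

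The promoters of the named genes were read for short motifs that bear on the lysosomal and macrophage genes above. CACGTG is the E-box that factors of the Tfeb family bind, and GAGGAAGT is a site of the macrophage factor PU.1. Both strands were searched in RefSeq windows (GRCm38.p6) from 250 bases before to 50 bases after each gene start. Of the 15 named genes that were higher, 12 matched by symbol, with 16 windows. CACGTG was in 7.15% of all 32851 windows and in 1 of these 16 (6.25%), that of Ctsd. Its longer form TCACGTGA, which contains it, was in 0.974% of all windows and in the same Ctsd window. GAGGAAGT was in 3.20% of all windows, in 1 of the 16 (Mmp12) and in 1 of the 13 of the named lower genes (Adgre4). Each of these counts is 1 window, too few to set against the share of all promoters. The stretches around the Ctsd and Mmp12 matches are printed because these genes stand among the named lysosomal and matrix genes. They run 5′ to 3′ on the strand of the gene, with the match in capitals. The Ctsd stretch is chr7:142387909-142387936 on the minus strand, 28 bases with the match 99 bases before the RefSeq start. The GENCODE span of Ctsd given above starts farther upstream and holds this stretch, so the annotations disagree on whether it is promoter or transcript. The Mmp12 stretch is chr9:7344259-7344366 on the plus strand, 108 bases with the reverse complement of GAGGAAGT 88 bases before the start.
Ctsd: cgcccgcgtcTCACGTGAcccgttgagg
Mmp12: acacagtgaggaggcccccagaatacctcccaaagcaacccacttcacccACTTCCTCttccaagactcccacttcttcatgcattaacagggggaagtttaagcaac

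The members were not uniform in Kupffer cell genes. Clec4f had a UMI in 24.2% of the members of HFD replicate 1, 52.0% of those of HFD replicate 2 and 22.9% of those of JQF. Thinned to 5000 UMIs a cell, the shares were 18.7, 42.3 and 19.6% of 219, 513 and 46 members, against 0.413, 5.95 and 1.11% of T cells. HFD replicate 2 was the highest library in both cell types, and Clec4f was also highest there in barcodes of at most 100 UMIs, which hold free RNA (128, 698 and 178 CPM).

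Members with and without a Clec4f UMI differed in many genes, in a split chosen after its values were seen and given with no test. Those with Clec4f held more Cd5l, a scavenger protein of Kupffer cells, at 3514 against 1449.8, 3950.5 against 1703 and 2713 against 753 CPM without it. They held more Slc40a1, the iron exporter ferroportin (1060.1 against 326, 1172 against 469 and 915 against 147 CPM), and more Mmp12 (2311 against 1474, 2131 against 1043 and 5209 against 905 CPM). All 3 libraries went the same way. Members without Clec4f held more Gpnmb (1163 against 661, 717 against 381 and 1414 against 211 CPM with it), more Fabp5 (818 against 389, 844 against 365 and 1412 against 514 CPM) and more Fabp4 (208 against 93.2, 203 against 101 and 363 against 13.2 CPM). They also held more of the monocyte gene Ccr2 (139 against 30.8, 206 against 60.2 and 196 against 0 CPM). Ctsd differed little, at 3713 against 3687, 3212 against 2811 and 4122 against 3741 CPM with against without Clec4f. The median depths with against without Clec4f were 19256.5 against 14502, 16280 against 14013 and 11068 against 17430 UMIs, and the JQF values rest on 11 members with Clec4f.

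**Figure D4:**
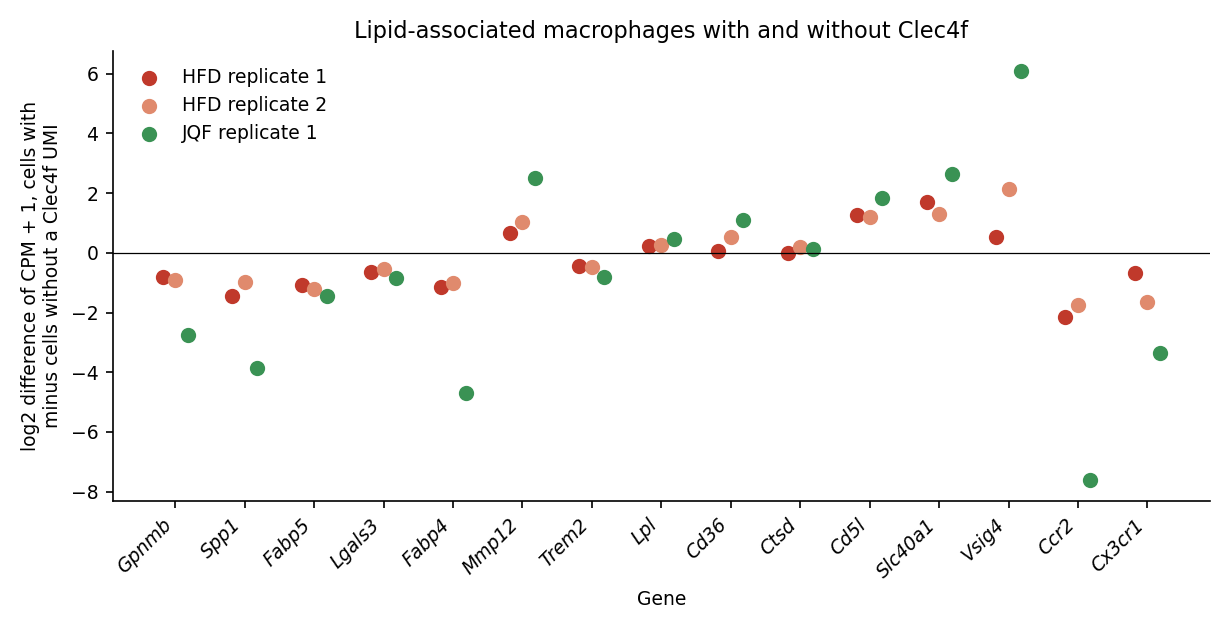
Each point is 1 library's log2 difference of CPM + 1 between members with and without a Clec4f UMI (y axis) for 15 genes (x axis). Cd5l, Slc40a1 and Mmp12 lie above 0 and Gpnmb, Fabp5, Fabp4 and Ccr2 below 0 in all 3 libraries, with JQF, which has 11 members with Clec4f, farthest from 0 for each of them.

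Whether the members differed between JQF and HFD was tested on their sums per library, in which less RNA of a gene per cell and fewer cells that carry it cannot be told apart. Of 11507 genes 27 passed an adjusted p of 0.05 in the edgeR fit (0.235%), 23 higher in JQF (0.2%) and 4 lower (0.0348%). The JQF library with its 48 members is assumed to vary like the 2 HFD libraries. Of the 23 higher genes 13 had a UMI in at least 10 JQF members. None of the 4 lower genes did, but a low level in JQF itself leaves few such cells. With members of at least 2 Trem2 UMIs no gene passed (0, with 1464 at an unadjusted p under 0.05).

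Slc7a11, Gclc and Fth1 were among the genes higher in JQF members. Slc7a11, which imports cystine (chr3:49892526-50443614), stood at 32.7 and 40.6 CPM in HFD and 345 CPM in JQF, where 20 of 48 cells had a UMI (log2 fold change 3.31 ± 0.21 SE, adjusted p = 0.0147). Gclc, the enzyme of the rate-limiting step of glutathione synthesis, stood at 67.0 and 69.9 CPM in HFD and 288 CPM in JQF in 25 cells (2.16 ± 0.18, adjusted p = 0.0219). Fth1, the ferritin heavy chain, stood at 8294 and 8523 CPM in HFD and 18196 CPM in JQF in all 48 cells (1.21 ± 0.10, adjusted p = 0.0219). The HFD libraries lay close together for each gene and JQF above both. The fit takes its spread from the HFD libraries, so this closeness is no further support. The 3 JQF cells richest in each gene held 67.9% of the Slc7a11 UMIs, 57.2% of the Gclc UMIs and 25.3% of the Fth1 UMIs. In the other Timd4-negative macrophages Slc7a11 stood at 54.6 and 39.2 CPM in HFD and 375 CPM in JQF, Fth1 at 5839 and 5691 CPM in HFD and 11505 CPM in JQF and Gclc at 103 and 82.7 CPM in HFD and 101 CPM in JQF. The iron and oxidative defence list gave 2 of 15 higher (Gclc and Fth1) and a median log2 fold change of 0.58, against -0.04 over all genes tested.

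The chemokine genes Cxcl2 and Ccl4 were higher in the JQF members. Cxcl2, a neutrophil attractant, stood at 733 and 1099 CPM in HFD and 4469 CPM in JQF, in 41 of 48 cells (2.38 ± 0.24, adjusted p = 0.0322). Ccl4, which attracts monocytes and T cells, stood at 1057 and 1057 CPM in HFD and 2639 CPM in JQF, in 44 cells (1.41 ± 0.15, adjusted p = 0.0322). Of the inflammatory mediators 3 of 21 were higher in edgeR, with a list median of 1.23, but the remaining gene, Nos2, had its 75 UMIs in 2 JQF cells. The list gave 7 higher genes with DESeq2, 5 without predicted doublets, 1 without Clec4f-positive cells (Nos2) and none at 2 or more Trem2 UMIs. The list's further chemokine genes, Ccl2, Ccl3, Ccl5, Ccl7, Cxcl1, Cxcl9, Cxcl10 and Cxcl16, did not pass in edgeR, with log2 fold changes from -0.49 for Ccl7 to 1.84 for Cxcl1. In the other Timd4-negative macrophages Cxcl2 stood at 610.1 and 1052 CPM in HFD and 3434 CPM in JQF and Ccl4 at 1369 and 1154 CPM in HFD and 2346 CPM in JQF. Cxcl2 stood at 1474 CPM in the 3 NCD members and 3067 CPM in the 23 other Timd4-negative macrophages of NCD, which entered no fit. In these NCD classes the inflammatory mediators summed to 12471.5 and 12916 CPM. They summed to 4244, 5991 and 13366.5 CPM in the HFD and JQF members and 4952, 6859 and 12317 CPM in the others. The stress and immediate early list, which cell dissociation can raise, summed to 6626, 9978 and 14054 CPM in the HFD and JQF members. It summed to 23987 CPM in the 3 NCD members. None of its 13 genes passed in edgeR, 3 were higher with DESeq2 (Atf3, Jun and Egr1), 2 without predicted doublets (Dnajb1 and Egr1) and 9 with no filter on low counts. Its median was 0.87, and its part in the chemokine values was not tested.

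Clec4d, a C-type lectin receptor gene, stood at 57.5 and 56.1 CPM in HFD and 195 CPM in JQF in the members (1.87 ± 0.18, adjusted p = 0.0304) and the coagulation factor gene F10 at 71.7 and 68.6 CPM in HFD and 236 CPM in JQF (1.84 ± 0.18, adjusted p = 0.0304). Dhx40 and Arl5c rose by 1.91 ± 0.18 and 1.70 ± 0.20. These genes were higher in JQF in the other Timd4-negative macrophages as well. There Clec4d stood at 31.7 and 43.4 CPM in HFD and 193 CPM in JQF, and F10 at 70.7 and 68.8 CPM and 150 CPM. Dhx40 stood at 71.6 and 81.5 CPM in HFD and 230 CPM in JQF, and Arl5c at 53.2 and 62.5 CPM and 109 CPM. Of the lipid uptake and efflux list Acsl1, which activates fatty acids, alone of 24 rose, at 41.98 and 39.3 CPM in HFD and 118 CPM in JQF (1.63 ± 0.19, adjusted p = 0.0475).

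Several of the larger differences rested on few JQF cells. Ccr7, the lymph node homing receptor of mature dendritic cells, stood at 5.50 and 6.31 CPM in HFD and 149 CPM in JQF (4.71 ± 0.21, adjusted p = 0.00402), but its 129 JQF UMIs lay in 3 cells. Without predicted doublets it stood at 1.24 CPM in JQF, and its log2 fold change was -1.36. Nr4a3, a nuclear receptor gene induced by activation, stood at 17.99 and 20.96 CPM in HFD and 130.2 CPM in JQF (2.82 ± 0.21, adjusted p = 0.0209) and at 33.3 CPM in JQF without predicted doublets. Colec12, a scavenger receptor gene, stood at 21.7 and 26.9 CPM in HFD and 141 CPM in JQF, with 86.9% of its 122 JQF UMIs in 3 cells, and among cells with no Clec4f UMI its log2 fold change was -2.72 instead of 2.60. The 10 dendritic cell markers, Ccr7 among them, summed to 122, 166 and 292 CPM in the members, and Ccr7 was the only one of 9 tested that passed.

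Lower in the JQF members were Plac8, Thrb, Cd207 and Fpr1. Plac8 stood at 111 and 133 CPM in HFD and 10.4 CPM in JQF, where it had 9 UMIs in 5 cells (-3.47 ± 0.35, adjusted p = 0.0322). Cd207, which encodes the lectin langerin, stood at 302 and 278 CPM in HFD and 69.1 CPM in JQF (-1.98 ± 0.22, adjusted p = 0.0475). Thrb, a thyroid hormone receptor gene, stood at 67.7 and 83.7 CPM in HFD and 5.76 CPM in JQF, where it had 5 UMIs (-3.63 ± 0.42, adjusted p = 0.0475). Both HFD libraries lay above JQF for each gene, as the choice of named genes required. In the other Timd4-negative macrophages Cd207 stood at 203 and 335 CPM in HFD and 134 CPM in JQF and Thrb at 105 and 145 CPM in HFD and 17.98 CPM in JQF.

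The lists with most genes higher in the members than in other Timd4-negative macrophages are set here beside all genes tested between JQF and HFD. Of all genes tested 27 of 11507 passed (0.235%). At that share lists of this size would hold few or no passing genes, so their counts are no result about the lists. Of the programme outside the rule 1 of 20 was higher (Colec12), with a median log2 fold change of 0.37. Of the lysosome and Trem2 signalling lists none passed in edgeR (0 of 37 and 0 of 15), with medians of 0.26 and 0.05, and with DESeq2 1 lysosomal gene, Ctsc, was lower. Mmp12 stood at 1705 and 1650.1 CPM in HFD and 1658 CPM in JQF and Ctsd at 3694 and 3035 CPM in HFD and 3808 CPM in JQF. A p that missed the threshold at 48 JQF cells does not show that the groups were alike.

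**Figure D5:**
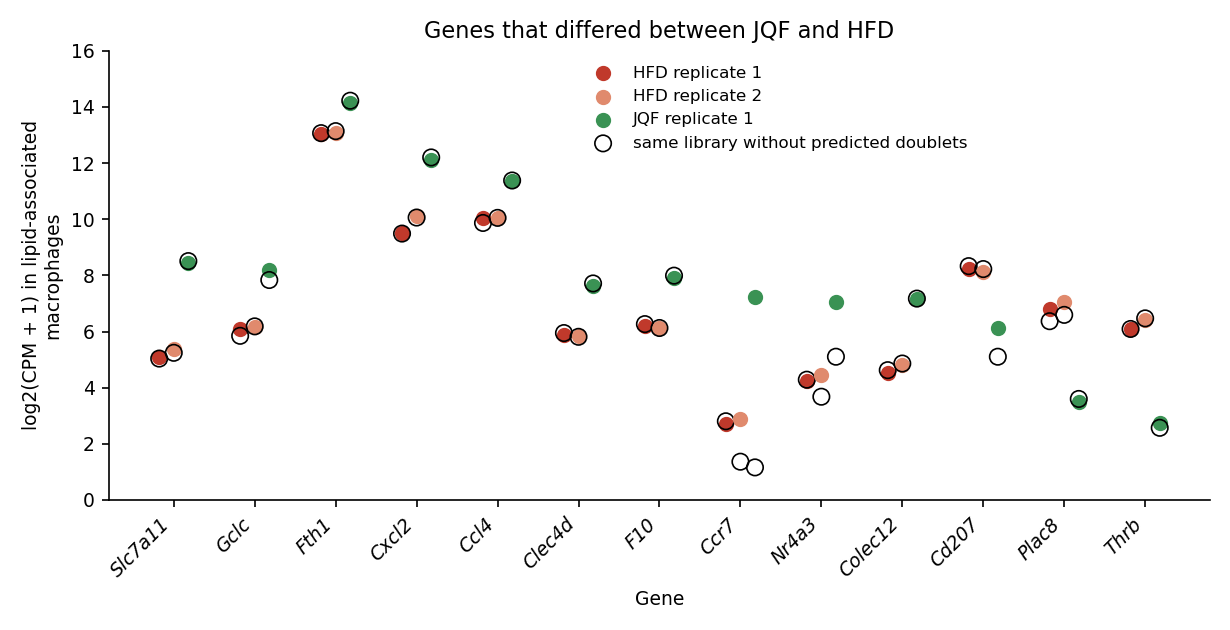
Filled points are the log2(CPM + 1) of 13 genes (x axis) in the members of HFD replicate 1, HFD replicate 2 and JQF, and open circles are the same library without predicted doublets. JQF lies above both HFD libraries from Slc7a11 to Colec12 and below them for Cd207, Plac8 and Thrb, and the JQF circle of Ccr7 lies at 1.24 CPM.

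Whether the difference between JQF and HFD was another in the members than in the other Timd4-negative macrophages was tested as an interaction. Its p-values rest on the spread between the 2 HFD libraries alone, with 1 residual degree of freedom. The JQF library is again assumed to vary like them. Of 11797 genes 91 passed in edgeR (0.771%), 43 with the higher log2 fold change in the members (0.364%) and 48 with the lower (0.407%). Of the monocyte-derived list 6 of 16 had the lower one (Fn1, Plac8, Hp, S100a4, Itgam and Cx3cr1), with a median difference of -1.17 against -0.05 over all genes tested. Without predicted doublets 4 of the 16 had the lower one, with a median of -0.70, and without Clec4f-positive cells 3 did. Fn1, fibronectin, stood at 89.5 and 139 CPM in HFD and 27.7 CPM in JQF in the members and at 50.04 and 84.8 CPM in HFD and 132 CPM in JQF in the others (-3.03 ± 0.28, adjusted p = 3.2e-05). It was lower in JQF among members and higher in JQF among the others. Igf1, a growth factor gene, went the other way, at 334 and 402 CPM in HFD and 589 CPM in JQF in the members and 293 and 314 CPM in HFD and 127 CPM in JQF in the others (1.92 ± 0.19, adjusted p = 3.93e-05). Rsad2, an antiviral interferon-induced gene, stood at 186 and 277 CPM in HFD and 93.4 CPM in JQF in the members and 195 and 297 CPM in HFD and 286 CPM in JQF in the others (-1.54 ± 0.21, adjusted p = 0.00105). Of the Kupffer list 3 of 20 had the higher log2 fold change in the members, Clec4f, Cd5l and Kcna2, and 1 did without predicted doublets. The neutrophil genes S100a8 and S100a9 had the lower one, and the 8 neutrophil markers summed to 85.7, 116 and 70.3 CPM in the members and 112, 202 and 473 CPM in the others, with Ly6g and Camp at 0 in JQF. Their part in the interaction was not tested. Without predicted doublets 36 genes passed, among them Fn1, at -1.75.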

How the data were processed

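Single-cell libraries (10x Genomics) of liver from 1 NCD, 2 HFD and 1 JQF sample were used. The values are raw counts of UMIs per gene and barcode that the authors deposited as filtered and unfiltered matrices. The submitters' processing notes name Cell Ranger 6.0.1, Seurat 4.0.3 and mm10, while the file headers name Cell Ranger 7.0.0 (filtered) and 4 (unfiltered). Whether introns and strand entered the counting is not given in the sources used here. The labels count 1, 2 and 1 samples of liver. In the member comparison p-values measure the spread over the 3 library pairs. In the JQF fit and the interaction the spread comes from the 2 HFD libraries alone, with 1 residual degree of freedom. It is pooled with that of all genes tested (prior degrees of freedom 5.25 and 15.6), and the JQF library adds none. This spread may be technical.

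Cells were kept at 500 genes or more and at most 20% mitochondrial UMIs (5975 to 10259 cells and 67615639 to 108062769 UMIs a library). CPM are a gene's UMIs over all UMIs of the class, scaled to 1e+06. Doublets were scored with Scrublet in scanpy 1.11.5. The kept cells with the highest scores were marked as predicted doublets, 0.8% of them per 1000 called barcodes of the library. The number marked in each library was thus fixed in advance. Marked cells stayed in unless stated. Counts were summed by library and class where a class had at least 20 cells, scaled by TMM, filtered with filterByExpr and tested with glmQLFTest (edgeR 4.0.16), with Benjamini-Hochberg adjustment over all genes tested. DESeq2 1.42.0 was an alternative. The 16 genes of the rule stayed out of the fits. The fits were tested on simulated counts with 200 genes changed by 2 on the log2 scale. The member fit (10586 genes) recovered 100% of them, the JQF fit (11411 genes) 89.0% and the interaction (11511 genes) 52.5%. Unchanged genes that passed numbered 4, 16 and 6 in this order. The simulation gave all libraries the same mean profile and all genes the same spread. Its rates may therefore not hold for genes whose UMIs lie in few cells. Alternatives changed the filter, scaling, doublets, thresholds, comparator, depth, block and libraries.

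Named genes passed the test at a mean of at least 50 CPM with the same direction in every library, ranked by log2 fold change, without genes of the rule and mitochondrial, ribosomal or unnamed genes. The first 15 higher and 10 lower were taken for the member comparison and up to 10 each way for the others, with list genes by abundance. Genes named beyond this were chosen after their values were seen. Coordinates are GRCm38 (GENCODE M21), where 32158 of 32285 gene IDs matched. Members and lists were chosen with earlier results of these data known.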

Additional observations from a re-analysis of the deposited data

Results flagged for a closer look

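The 20 genes named here, the 10 with the greatest log2 difference each way among the 91 that passed, were taken from those of at least 50 CPM. Their log2 fold change between JQF and HFD differed between the members and the other Timd4-negative macrophages by the interaction test (edgeR, adjusted p under 0.05). The difference was 2.43 for Mmp19, 1.92 for Rell1, 1.92 for Igf1, 1.90 for Gclc, 1.81 for Homer1, 1.74 for Airn, 1.60 for Ifi205, 1.60 for Cfb, 1.49 for Ptprm and 1.45 for Ppfibp2. It was -3.03 for Fn1, -2.97 for Plac8, -2.92 for Stmn1, -2.38 for Slpi, -1.89 for Gbe1, -1.82 for Mef2c, -1.60 for Runx2, -1.54 for Rsad2, -1.44 for Kitl and -1.44 for Arhgap15. Without predicted doublets 8 of the 20 no longer passed. In cells with no Clec4f UMI, an alternative chosen after seeing the data, 7 no longer passed, where Gbe1 stood at -0.47 and Slpi at -0.98, and Kitl turned direction. All rest on the 48 JQF members of 1 library.

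Barcodes of at most 100 UMIs, which hold free RNA and entered no test, carried the genes that the rule requires above their level in NCD. Genes that the rule excludes did not all go this way. In these barcodes Timd4 stood at 3.35, 39.2 and 24.4 CPM against 22.2 CPM in NCD, and Cd79a at 38.3, 33.4 and 36.3 CPM against 49.9 CPM. Gpnmb stood there at 164, 120.4 and 26.6 CPM in HFD replicate 1, HFD replicate 2 and JQF, against 0.910 CPM in NCD. Trem2 stood at 133, 146 and 30.3 CPM, against 2.55 CPM in NCD. Spp1 stood at 665, 228 and 354 CPM, against 57.3 CPM in NCD, and this was above its level in the members of HFD replicate 1 and JQF. The member levels come from the filtered matrices, whose headers name another Cell Ranger version, so the 2 may have been counted differently. The lipid-handling genes of the rule were above NCD as well, with Lpl at 334, 487 and 114 CPM, Cd9 at 229, 217 and 155 CPM, Cd63 at 241, 262 and 126 CPM and Fabp5 at 200.4, 241 and 85.3 CPM, against 30.4, 87.3, 9.64 and 53.9 CPM in NCD.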

How the results depend on the processing

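The member comparison gave 627 genes, and 1196 with no filter on low counts, 406 with DESeq2, 378 against macrophages with no Trem2 UMI and 0 with no library block. Leaving out 1 library gave 139 (HFD replicate 2) to 1290 (JQF). The JQF comparison gave 27 genes, and 825 with no filter, 101 without predicted doublets, 0 at 2 or more Trem2 UMIs, 94 with DESeq2, 8 with cells thinned to 5000 UMIs and, chosen after seeing the data, 7 without Clec4f-positive cells. With 1 HFD library left out it has no residual degrees of freedom and gave fold changes only. The interaction gave 91 genes, 219 with no filter and 36 without predicted doublets. The HFD share was 41.0% and the JQF share 14.8% of C1q-positive macrophages. Over all kept cells they were 4.44% and 0.562%, with both Spp1 and Gpnmb required 15.9% and 5.25%, and with Spp1 alone counted 20.5% and 7.72%. Over Timd4-negative macrophages JQF reached 29.8%. Without either HFD library the HFD share was 30.4% to 51.6%.

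Among the named genes directions turned for Ccr7 in the JQF comparison without predicted doublets (-1.36), for Colec12 there without Clec4f-positive cells (-2.72) and for Kitl in the interaction without Clec4f-positive cells (1.45). The cause was not tested. Over all genes that passed, 3 of the 91 interaction genes turned without predicted doublets and 4 without Clec4f-positive cells, as did 1 of the 627 member genes without Clec4f-positive cells. All 25 genes named for the member comparison kept their direction under every alternative run, though none passed without the block and 1 each failed the threshold against macrophages with no Trem2 UMI and without HFD replicate 2. All 13 genes named for the JQF comparison failed the threshold at 2 or more Trem2 UMIs. The 48 JQF members limit every JQF result, since 3 UMIs there stand for 3.46 CPM, against 0.338 to 0.750 CPM in HFD. The groups were not paired, since the labels give no link between libraries of different groups.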

Other observations

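Members with and without an Spp1 UMI differed in programme genes, not all in the same direction. In the order HFD replicate 1, HFD replicate 2 and JQF, Atp6v0d2 stood at 219 against 96.3, 187 against 63.1 and 251 against 59.6 CPM. Fabp4 stood at 279.7 against 52.3, 222 against 72.6 and 507 against 46.6 CPM and Lgals3 at 4169.6 against 2044, 2794 against 1830.0 and 5121 against 2801 CPM. These genes were higher with Spp1 in all 3 libraries. Mmp12 and Cd36 were higher with Spp1 in both HFD libraries and lower in JQF, at 2068 against 1268, 2029 against 1284 and 1380.5 against 2005 CPM and 1191 against 850.2, 1174 against 1056 and 1029.6 against 1472 CPM. Apoe was lower with Spp1 at 22871 against 29266, 22062 against 27955 and 17244 against 18234 CPM, as was the Kupffer cell gene Cd5l at 1664 against 2448, 2401 against 3492 and 407 against 1956 CPM. Median depths with against without Spp1 were 15885 against 15175, 15383 against 14668 and 18423 against 12002 UMIs. Spp1 in barcodes of at most 100 UMIs stood at 665, 228 and 354 CPM, and the part of free RNA in the split was not tested. This split was chosen after its values were seen and carries no test.

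The cell cycle list summed to 870.2, 677 and 523 CPM in the members, and none of its 14 genes passed between JQF and HFD in edgeR. Stmn1 was lower in JQF with DESeq2 and without predicted doublets, and 7 genes were with no filter on low counts. Of the 14 genes 5 were at 0 in the 48 JQF members, so no median is given.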
